A study of Mus musculus with 51 samples.

Results

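Adgre1, Csf1r, Cd68, Trem2, Gpnmb, Mpeg1, Itgax, C3ar1, Clec7a and Mmp12 are genes by which macrophages are commonly recognised, and their transcript levels were followed in the mammary gland (MG) of 2 mouse strains across radiation dose and time. They were chosen with earlier results of these data known, and taken by symbol, as all probe sets annotated to one of these symbols alone. This gave 12 probe sets of the 22626 on the array, for all 10 genes of the 11807 that have a probe set of their own. Trem2 and C3ar1 have 2 probe sets each, and 1 probe set that Gpnmb shares with Wdr6 was left out. Each gene is represented by its brightest probe set, and no filter on low values was applied.

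The 43 MG arrays came from female BALB/c (20 arrays) and C57BL/6 (23 arrays) virgin mice, 1 array per mouse. All mice were about 8 weeks old at the first of 4 weekly whole-body exposures, which were 7.5 cGy (low dose, LD), 1.8 Gy (high dose, HD) or sham. The glands of the 4th pair were taken 4 hr or 1 month after the last exposure, with the inguinal lymph node removed. The BALB/c groups held 3 sham, 4 LD and 4 HD arrays at 4 hr and 3, 2 and 4 at 1 month, and the C57BL/6 groups 3, 4 and 4 at 4 hr and 4 of each at 1 month. BALB/c is the strain more prone to radiation-induced mammary cancer and C57BL/6 the more resistant one, and the question was how either dose and the time after it change the glands of each strain. All values are log2 intensities, so that a difference of 1 is a doubling, and levels are compared between arrays for the same gene and not between genes.

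Macrophages of the MG lie along ducts and in the fat pad, where they clear dead cells and debris, remodel matrix and take part in ductal branching. Their survival depends on the receptor encoded by Csf1r. Adgre1 encodes EMR1, the classic surface antigen of mouse macrophages, and Cd68 encodes macrosialin of endosomes and lysosomes. Trem2, a lipid-sensing receptor, and Gpnmb, a transmembrane glycoprotein, are high in lipid-laden macrophages. Mmp12 encodes the secreted macrophage elastase. Mpeg1 (perforin-2, a pore-forming protein of phagosomes), Itgax (the integrin CD11c), C3ar1 (the receptor of complement C3a) and Clec7a (dectin-1, a receptor of fungal glucans) are shared by macrophages with other myeloid cells, among them dendritic cells and neutrophils.

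As a check of the label, the genes that followed the mean of the 10 members most closely over the 43 arrays, after subtraction of each strain's mean, were sought among the 11797 other genes. Pearson's r was 0.866 for Lilrb4a (an inhibitory receptor of myeloid cells), 0.851 for the lysosomal protease gene Ctss, 0.831 for Ms4a7 and 0.829 for Tyrobp, the signalling adaptor of the TREM2 receptor. Clec4a2, Itgb2, Adam8, Lipa, Lgmn and Slc11a1 came next, at 0.790 to 0.823. These are myeloid or lysosomal genes, and the median r over all other genes was −0.016. For the members themselves, each of which is part of the mean, r ran from 0.477 for Clec7a to 0.865 for Trem2. Within BALB/c alone it ran from 0.551 (Clec7a) to 0.945 (Trem2). Within C57BL/6 alone it was only 0.092 for Mmp12, 0.332 for Itgax and 0.367 for Gpnmb, and 0.514 (Clec7a) to 0.888 (Csf1r) for the rest. The arrays share strain, dose and time, so these coefficients are a description.

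Some arrays held transcripts of another tissue, by a mean over skeletal muscle, epidermis and hair, or B cell genes more than 2 log2 units above the strain median. Skeletal muscle genes stood out in C57BL/6 sham 1 month replicate 2, BALB/c HD 4 hr replicate 1, BALB/c HD 1 month replicate 3 and BALB/c sham 4 hr replicate 1 (by 2.23 to 6.28). Epidermis and hair genes stood out in BALB/c LD 4 hr replicate 1 (by 3.61), and B and T cell genes in BALB/c HD 1 month replicate 1 (by 3.12 and 3.00). Brown adipocyte genes, which that rule did not use, were highest in C57BL/6 sham 4 hr replicate 2 (11.42, by 2.76). Each strain was hybridised on a plate of its own, so plate and strain cannot be told apart, and the dose groups lay in different column ranges of a plate. The LD and HD arrays of 4 hr had the same wells on both plates. A change seen in both strains therefore cannot be told apart from plate position either. Array medians lay between 6.16 and 6.36.

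Sequence upstream of the genes is shown for 4 members whose levels differed most between the BALB/c sham groups, and for Clec7a, which HD lowered. The windows are from RefSeq (GRCm38.p6), run from 250 bases before to 50 after an annotated start, and are written 5′ to 3′ on the gene's strand. Capitals mark the AP-1 type motif TGANTCA, which reads the same on both strands. Mmp12 (plus strand) has a window at its first start, chr9:7344147-7344446, and one around an annotated start inside the gene, chr9:7347124-7347423. The others are Gpnmb (plus) at chr6:49036268-49036567, Trem2 (plus) at chr17:48346151-48346450, Itgax (plus) at chr7:128129300-128129599 and Clec7a (minus) at chr6:129472736-129473035.
Mmp12 first start: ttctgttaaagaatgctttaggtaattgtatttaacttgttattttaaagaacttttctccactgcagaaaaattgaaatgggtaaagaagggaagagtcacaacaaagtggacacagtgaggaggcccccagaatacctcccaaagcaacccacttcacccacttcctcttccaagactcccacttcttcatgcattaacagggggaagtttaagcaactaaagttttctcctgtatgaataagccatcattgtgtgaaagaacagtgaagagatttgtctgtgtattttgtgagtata
Mmp12 internal start: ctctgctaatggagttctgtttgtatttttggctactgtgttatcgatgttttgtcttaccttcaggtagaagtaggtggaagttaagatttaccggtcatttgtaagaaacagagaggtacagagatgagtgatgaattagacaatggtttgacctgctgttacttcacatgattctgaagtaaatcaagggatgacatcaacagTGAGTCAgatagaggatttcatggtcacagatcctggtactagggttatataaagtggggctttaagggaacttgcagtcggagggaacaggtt
Gpnmb: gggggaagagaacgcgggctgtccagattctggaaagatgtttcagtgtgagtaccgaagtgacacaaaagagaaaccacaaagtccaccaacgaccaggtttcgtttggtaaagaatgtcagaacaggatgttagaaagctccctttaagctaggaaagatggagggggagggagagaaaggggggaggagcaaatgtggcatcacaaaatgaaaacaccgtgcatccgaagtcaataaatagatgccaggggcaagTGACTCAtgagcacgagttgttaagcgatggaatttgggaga
Trem2: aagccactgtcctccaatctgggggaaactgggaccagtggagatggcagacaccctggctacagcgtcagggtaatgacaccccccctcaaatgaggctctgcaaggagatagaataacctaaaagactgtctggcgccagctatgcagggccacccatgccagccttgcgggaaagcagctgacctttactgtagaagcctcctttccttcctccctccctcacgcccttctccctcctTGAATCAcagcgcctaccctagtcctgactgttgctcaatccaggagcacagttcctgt
Itgax: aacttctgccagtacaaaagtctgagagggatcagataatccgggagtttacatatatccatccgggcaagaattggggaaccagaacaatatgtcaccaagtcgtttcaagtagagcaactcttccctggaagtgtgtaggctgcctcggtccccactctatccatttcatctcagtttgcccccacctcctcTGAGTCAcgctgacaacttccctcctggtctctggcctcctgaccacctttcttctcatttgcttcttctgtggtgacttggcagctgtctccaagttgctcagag
Clec7a: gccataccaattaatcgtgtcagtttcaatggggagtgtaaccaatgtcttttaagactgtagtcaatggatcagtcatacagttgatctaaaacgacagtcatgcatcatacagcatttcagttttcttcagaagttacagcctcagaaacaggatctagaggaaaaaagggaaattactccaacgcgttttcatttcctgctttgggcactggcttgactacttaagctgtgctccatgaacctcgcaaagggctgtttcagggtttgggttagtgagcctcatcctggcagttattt

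Of the 8 members with a printable window, 6 held TGANTCA in at least 1 window (C3ar1, Cd68, Gpnmb, Itgax, Mmp12 and Trem2). Counted by window, 6 of their 10 held TGANTCA, against 7.81% of all 32851 windows of this length. Its first base lay at −44 from the internal start for Mmp12, −56 for Itgax, −9 for Trem2, −22 for C3ar1, 9 for Gpnmb, and −149 and −24 for Cd68. Clec7a and Mpeg1 held none. The PU.1 type motif GAGGAAG, searched on both strands, was in the window at the first start of Mmp12, in that of Trem2 and in 13.63% of all windows. The M-box type motif TCANGTG was in the internal window of Mmp12 and in 14.31% of all. Mmp12 and Clec7a have 2 starts each, and the window at the first start of Mmp12 held no TGANTCA. Neither binding nor promoter activity was measured, and a match is a description of the letters. The genes themselves lie at 9:7344397-7360461 (Mmp12), 6:49036518-49058182 (Gpnmb), 17:48346401-48352276 (Trem2), 7:128129526-128150657 (Itgax), 6:129461591-129472785 (Clec7a), 6:122847140-122856157 (C3ar1), 11:69664213-69666170 (Cd68), 19:12460770-12465285 (Mpeg1) and 17:57358581-57483529 (Adgre1) of the same build.

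The sham glands of BALB/c mice at 4 hr had the highest mean of all mammary groups for 8 of the 10 genes. Mmp12, Gpnmb and Trem2 stood highest above the other sham groups there, by more than 1 log2 unit. Mpeg1 and Clec7a were instead highest in C57BL/6 sham glands at 1 month. In whole glands, fewer macrophages and less RNA per macrophage cannot be told apart.

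**Figure D1:**
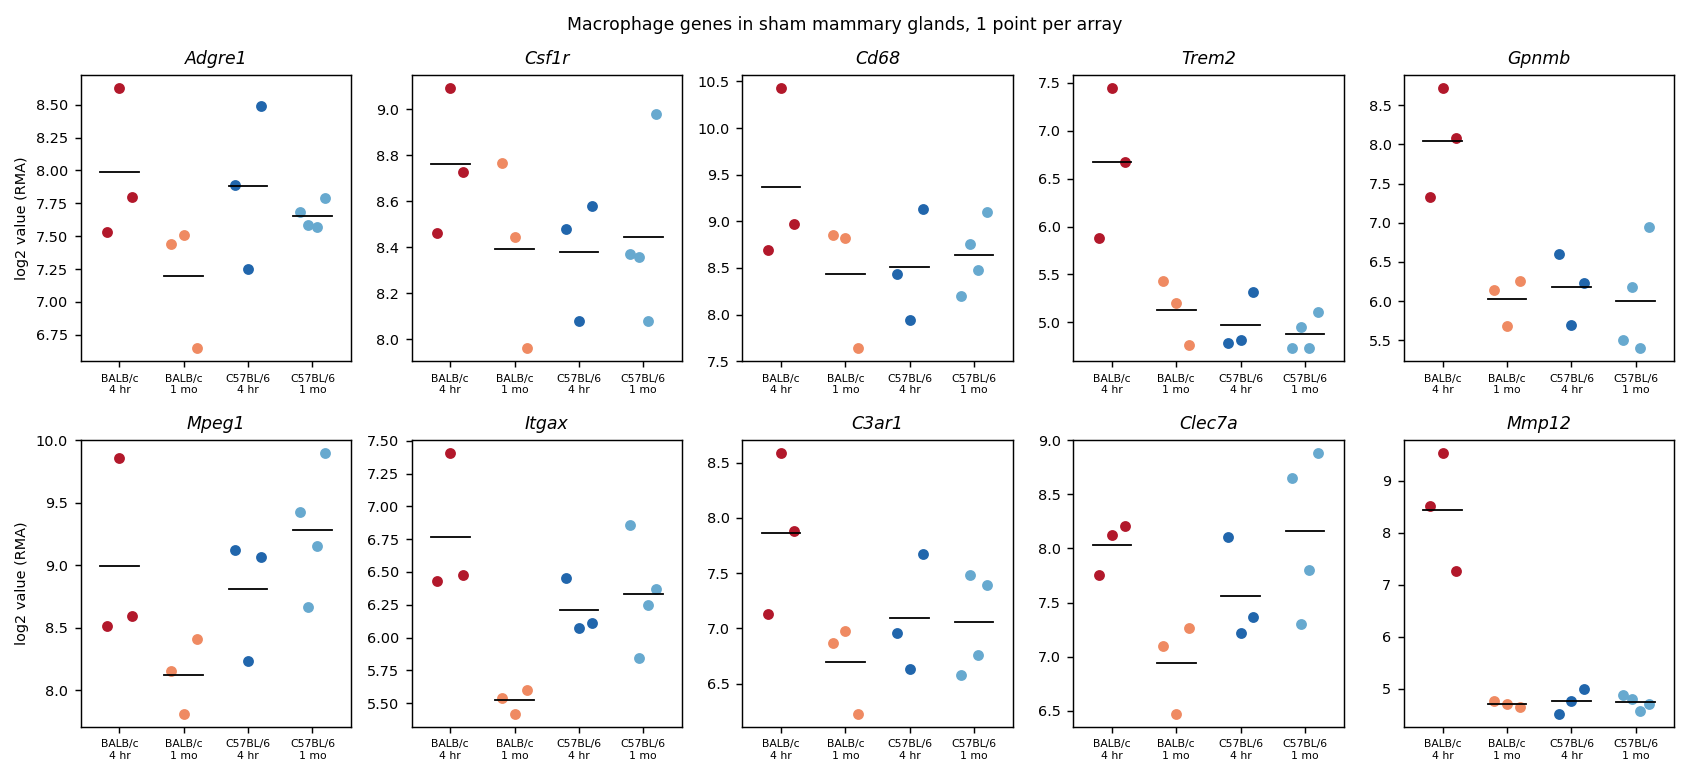
Log2 value (y axis) of each gene in the 13 sham arrays, 1 point per array, grouped by strain and time on the x axis (mo, month), with a line at the group mean. The 3 BALB/c 4 hr arrays of Mmp12, at 7.27 to 9.54, lie above the other 10 sham arrays, at 4.53 to 4.99.

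The secreted elastase gene Mmp12 showed the widest spread. Its values were 8.51, 9.54 and 7.27 in the BALB/c sham arrays at 4 hr, and 4.77, 4.70 and 4.66 in those at 1 month. In C57BL/6 sham glands it had 4.53, 4.78 and 4.99 at 4 hr and 4.89, 4.81, 4.58 and 4.72 at 1 month. The 3 BALB/c arrays at 4 hr thus stood apart, and the other 3 sham groups covered the same narrow range. Over all doses and times, 10 of 20 BALB/c arrays lay above the highest C57BL/6 array (5.70).

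The genes of lipid-laden macrophages had a similar order. Gpnmb had 7.33, 8.73 and 8.08 in BALB/c sham arrays at 4 hr and 6.14, 5.68 and 6.25 at 1 month, against 6.61, 5.69 and 6.23 in C57BL/6 at 4 hr and 5.50, 6.17, 5.40 and 6.95 at 1 month. Trem2 had 5.88, 7.45 and 6.68 in BALB/c at 4 hr and 5.43, 5.20 and 4.76 at 1 month, against 4.78, 4.82 and 5.32 in C57BL/6 at 4 hr and 4.73, 4.95, 4.73 and 5.11 at 1 month. For both genes the lowest BALB/c array at 4 hr was above every other sham array. The second probe set of Trem2 stayed between 4.01 and 4.70 in all 43 arrays and showed little of this. Cd68, the lysosomal glycoprotein gene, had 8.69, 10.43 and 8.97 in BALB/c at 4 hr and 8.86, 8.82 and 7.64 at 1 month, against 8.44, 7.94 and 9.13 in C57BL/6 at 4 hr and 8.20, 8.76, 8.48 and 9.10 at 1 month. Its groups overlapped, and 1 array, BALB/c sham 4 hr replicate 2, carried most of the higher mean.

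The lineage genes were less spread. Adgre1 had 7.53, 8.63 and 7.80 in BALB/c at 4 hr and 7.44, 7.51 and 6.65 at 1 month, against 7.89, 7.25 and 8.49 in C57BL/6 at 4 hr and 7.69, 7.59, 7.57 and 7.79 at 1 month. The 2 BALB/c groups were separated by a gap of less than 0.1, and the strains overlapped at 4 hr. Csf1r had 8.46, 9.09 and 8.73 in BALB/c at 4 hr and 8.77, 8.45 and 7.96 at 1 month, against 8.48, 8.08 and 8.58 in C57BL/6 at 4 hr and 8.37, 8.36, 8.08 and 8.98 at 1 month. All 4 groups overlapped.

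The genes shared with other myeloid cells, Mpeg1, Itgax, Clec7a and C3ar1, had a lower mean in BALB/c than in C57BL/6 sham glands at 1 month. In all, 8 of the 10 members did. Mpeg1 had 8.52, 9.86 and 8.60 in BALB/c at 4 hr and 8.16, 7.82 and 8.41 at 1 month, against 9.12, 8.24 and 9.06 in C57BL/6 at 4 hr and 9.43, 8.67, 9.15 and 9.90 at 1 month. Itgax had 6.43, 7.41 and 6.47 in BALB/c at 4 hr and 5.54, 5.42 and 5.60 at 1 month, against 6.45, 6.07 and 6.11 in C57BL/6 at 4 hr and 6.86, 5.85, 6.25 and 6.37 at 1 month. In both genes the BALB/c 1 month arrays were below all C57BL/6 sham arrays of that time. Clec7a had 7.75, 8.13 and 8.21 in BALB/c at 4 hr and 7.09, 6.47 and 7.27 at 1 month, against 8.10, 7.22 and 7.36 in C57BL/6 at 4 hr and 8.65, 7.31, 7.80 and 8.88 at 1 month. C3ar1 had 7.13, 8.59 and 7.88 in BALB/c at 4 hr and 6.87, 6.98 and 6.23 at 1 month, against 6.96, 6.63 and 7.67 in C57BL/6 at 4 hr and 6.58, 7.49, 6.76 and 7.39 at 1 month. Its second probe set moved with it, with 6.70, 8.57 and 7.17 in BALB/c at 4 hr and 6.82, 6.78 and 5.75 at 1 month.

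All 10 genes had a lower mean in BALB/c sham glands at 1 month than at 4 hr, and none passed the adjusted threshold. By limma, adjusted over all probe sets, no gene of the array was called either (0%), and the lowest adjusted p of a member was 0.5706. At an unadjusted p under 0.05, 7 members were lower, against 3.85% of all genes in that direction. The groups of 8 members did not overlap, against 6.36% of all genes. The median log2 fold change of the members was −1.13, beside −0.0153 over all genes. It was −3.73 for Mmp12 (SE 0.91, 95% interval −5.64 to −1.82), −2.02 for Gpnmb (SE 0.48), −1.54 for Trem2 (SE 0.38), −1.25 for Itgax (SE 0.36), −1.17 for C3ar1 (SE 0.38) and −1.09 for Clec7a (SE 0.24). Adgre1 was at −0.79 (SE 0.36), and the members not under that unadjusted threshold were Cd68 (−0.93, SE 0.50), Mpeg1 (−0.87, SE 0.51) and Csf1r (−0.37, SE 0.23). One mouse weighed heavily on these means: BALB/c sham 4 hr replicate 2 was the highest of the 20 BALB/c arrays for 8 members and among the top 3 for all 10. Without it the median was −0.87, and 5 members had an unadjusted p under 0.05.

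In C57BL/6 sham glands the same change with time lay between −0.22 for Adgre1 and 0.60 for Clec7a, and no member was called, where 3.04% of all genes were. The difference between the strains in this change was a contrast written after the values had been seen. All 10 members had the more negative value in BALB/c, 7 with an unadjusted p under 0.05 (4.21% of all genes), and none past the adjusted threshold (lowest adjusted p = 0.4067). The difference was −3.71 for Mmp12 (SE 0.92), −1.85 for Gpnmb (SE 0.61), −1.69 for Clec7a (SE 0.47) and −1.44 for Trem2 (SE 0.40).

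Between the strains at 4 hr, 3 members were higher in BALB/c sham glands by limma at an adjusted p under 0.05, where 1.72% of all genes were higher. These were Mmp12 (log2 fold change 3.67, SE 0.39, 12.8-fold, adjusted p = 1.23e-04), Gpnmb (1.87, SE 0.41, 3.66-fold, adjusted p = 0.0239) and Trem2 (1.70, SE 0.31, 3.24-fold, adjusted p = 0.0084), and the arrays of the strains did not overlap. Gpnmb lost its call without any 1 of BALB/c sham 4 hr replicates 2 or 3 or C57BL/6 sham 4 hr replicates 2 or 3 (adjusted p = 0.0556 to 0.1109) and with array weights (adjusted p = 0.0537), and Trem2 lost it when the groups compared were fitted alone (adjusted p = 0.0596). With the replicate number as a block neither was called. The other members differed by 0.11 (Adgre1) to 0.86 (Cd68), with adjusted p from 0.2746. At 1 month the same 3 genes differed little, by −0.04 (95% interval −0.82 to 0.74) for Mmp12, 0.02 (−0.82 to 0.85) for Gpnmb and 0.25 (−0.38 to 0.88) for Trem2. No member was called there, against 3.33% of all genes. Clec7a (−1.22, SE 0.35, adjusted p = 0.0829), Mpeg1 (−1.16, SE 0.35, adjusted p = 0.1045), Itgax (−0.81, SE 0.25, adjusted p = 0.1059) and Adgre1 (−0.46, SE 0.30) had no BALB/c array above the lowest C57BL/6 array, as had 8.04% of all genes. Without C57BL/6 sham 1 month replicate 2, the array with muscle transcripts, Clec7a passed at 1 month (−1.50, adjusted p = 0.0228). Averaged over both times, Mmp12 (1.82, SE 0.26, adjusted p = 8.36e-04) and Trem2 (0.97, SE 0.21, adjusted p = 0.0125) were higher in BALB/c, where 4.28% of all genes were, and Gpnmb was not called (0.95, SE 0.28, adjusted p = 0.0560). Trem2 was above every C57BL/6 array in 17 of the 20 BALB/c arrays of all doses and times. At its second probe set the strains overlapped, with 4.25 to 4.70 in BALB/c and 4.01 to 4.48 in C57BL/6.

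**Figure D2:**
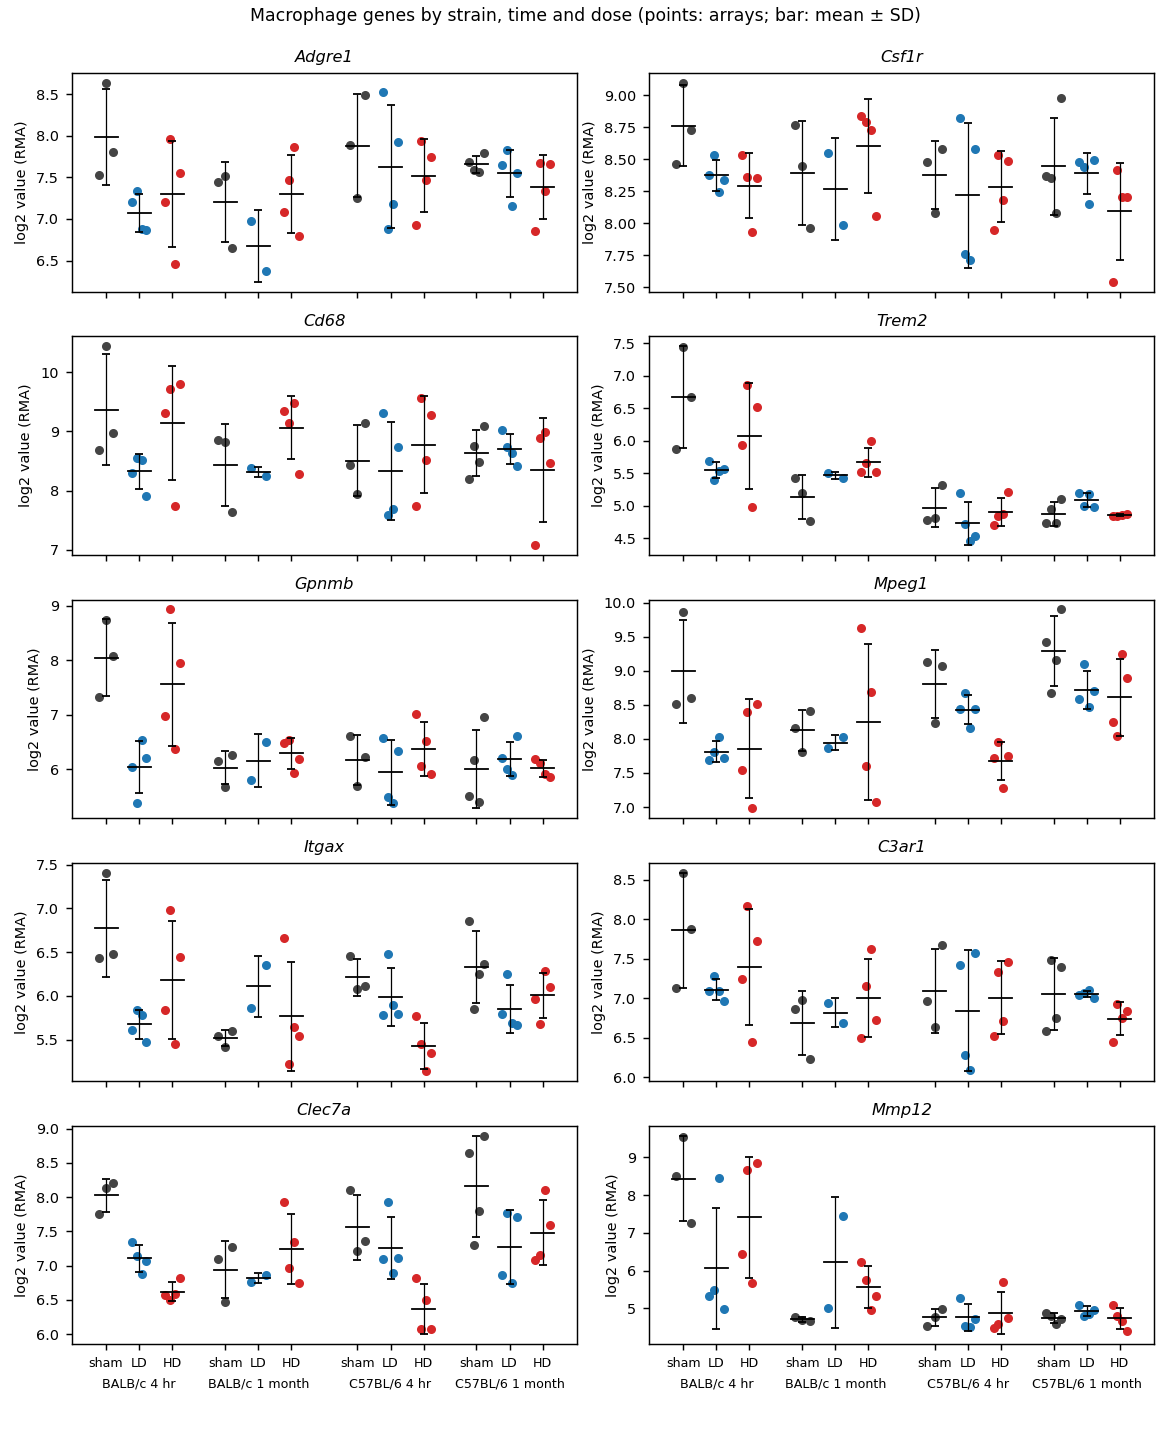
Log2 value (y axis) of each gene in all 43 MG arrays, 1 point per array, by dose on the x axis within each strain and time, with the group mean and SD as a bar. The BALB/c LD 4 hr points lie below the sham 4 hr points for 7 of the 10 genes and near the level of the sham arrays at 1 month.

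All 10 members lay lower in BALB/c glands 4 hr after LD than in the sham glands of that time, and none passed the adjusted threshold, nor did any gene of the array (0%). For Gpnmb the LD arrays had 6.03, 5.39, 6.53 and 6.21, all below the lowest sham array (7.33). For Trem2 they had 5.69, 5.40, 5.53 and 5.57, again all below the sham arrays. The second Trem2 probe set hardly differed, with means of 4.364 after LD and 4.415 in sham. Mmp12 had 5.33, 5.48, 8.45 and 4.99, so that 3 arrays were below the sham range and replicate 3 was within it. The LD values of Trem2 lay within a narrower range than its sham values.

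Among the lineage and lysosomal genes, the LD arrays had 7.20, 7.33, 6.88 and 6.87 for Adgre1, 8.30, 8.56, 8.52 and 7.92 for Cd68 and 8.38, 8.53, 8.25 and 8.34 for Csf1r. Adgre1 and Cd68 did not overlap with sham, and Csf1r did. Of the shared myeloid genes, Mpeg1 had 7.69, 7.81, 8.02 and 7.72, Itgax 5.61, 5.84, 5.78 and 5.47, Clec7a 7.35, 7.14, 6.88 and 7.07, and C3ar1 7.09, 7.28, 7.09 and 6.96. The LD arrays of the first 3 were below all sham arrays, while C3ar1 overlapped at its brightest probe set. At its second probe set the groups just missed each other, with 6.1194 to 6.7010 after LD and 6.7013 to 8.5693 in sham. Its group means there were 6.38 and 7.48. In all, at the brightest probe sets the groups of 7 members did not overlap, against 4.78% of all genes.

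The log2 fold changes after LD in BALB/c ran from −2.38 for Mmp12 (SE 0.85, 95% interval −4.16 to −0.59) to −0.39 for Csf1r (SE 0.22), with a median of −1.07 beside −0.0084 over all genes. Gpnmb was at −2.01 (SE 0.45), with the lowest adjusted p of the members (0.1729 by limma), and Clec7a at −0.92 (SE 0.23, adjusted p = 0.2065). Mpeg1 was at −1.18 (SE 0.48), Trem2 at −1.12 (SE 0.35), Itgax at −1.10 (SE 0.34), Cd68 at −1.04 (SE 0.47), Adgre1 at −0.92 (SE 0.34) and C3ar1 at −0.76 (SE 0.36). At an unadjusted p under 0.05, 8 members were lower (not C3ar1 and Csf1r), against 4.35% of all genes. At the study's thresholds for LD, which ask for an unadjusted p under 0.1 and a log2 change of more than 0.58 in size, 9 were lower, against 0.838% of all genes. The study had already reported Adgre1, Trem2, Gpnmb, Mpeg1, Clec7a and Mmp12 among the genes changed early after LD in these BALB/c glands. The members were chosen with this known. Their counts beside the shares of all genes, also for groups that did not overlap, are therefore a description and no independent test. Without BALB/c sham 4 hr replicate 2 all 10 were still lower, with a median of −0.74, and 3 had an unadjusted p under 0.05. With plate column as a covariate 3 also had one, with a median of −1.55.

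This comparison and the change of the BALB/c sham glands with time share the 3 sham arrays at 4 hr, so neither is independent of the other. Against the sham glands at 1 month the LD 4 hr means lay close for most members, with 6.04 and 6.03 for Gpnmb, 8.37 and 8.39 for Csf1r, and 5.67 and 5.52 for Itgax. The difference was larger for Trem2 (0.42), C3ar1 (0.42) and Mpeg1 (−0.31). Mmp12 was 1.35 higher in LD 4 hr glands than in sham glands at 1 month. All 4 of its LD arrays (4.99 to 8.45) lay above the sham arrays at 1 month (4.66 to 4.77), with replicate 3 the highest.

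Other cell types moved between the same BALB/c groups, and their part in the result was not tested. The mean of 7 NK and cytotoxic genes ran from 4.87 to 5.33 in the sham arrays and from 4.56 to 4.74 in the LD arrays, and that of 7 neutrophil genes from 4.72 to 5.40 and from 4.57 to 4.69. The mean of 8 T cell genes ran from 4.64 to 4.89 and from 4.51 to 4.63, with all 8 below 0. The mean of 7 proliferation genes ran from 5.50 to 6.47 and from 4.87 to 6.11, and that of 8 luminal epithelial genes from 9.62 to 10.13 and from 10.22 to 10.55. Of the others, 6 of 7 NK genes, 6 of 7 neutrophil genes and all 7 proliferation genes lay below 0 and 7 of 8 luminal genes above it, and the levels in the sham glands at 1 month ran from 4.66 to 4.90 (NK), 4.61 to 4.68 (neutrophil), 4.94 to 5.81 (proliferation) and 10.21 to 10.45 (luminal). The mean of 7 dendritic cell genes did not separate, with 5.77 to 5.92 in the sham arrays at 4 hr and 5.77 to 5.91 after LD. That of 5 adipocyte genes was just higher after LD, with 10.8648 to 10.9264 against 10.7181 to 10.8627 in the sham arrays at 4 hr. Without the arrays that held transcripts of another tissue the median of the 10 members after LD was −1.31, and 8 again had an unadjusted p under 0.05.

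**Figure D3:**
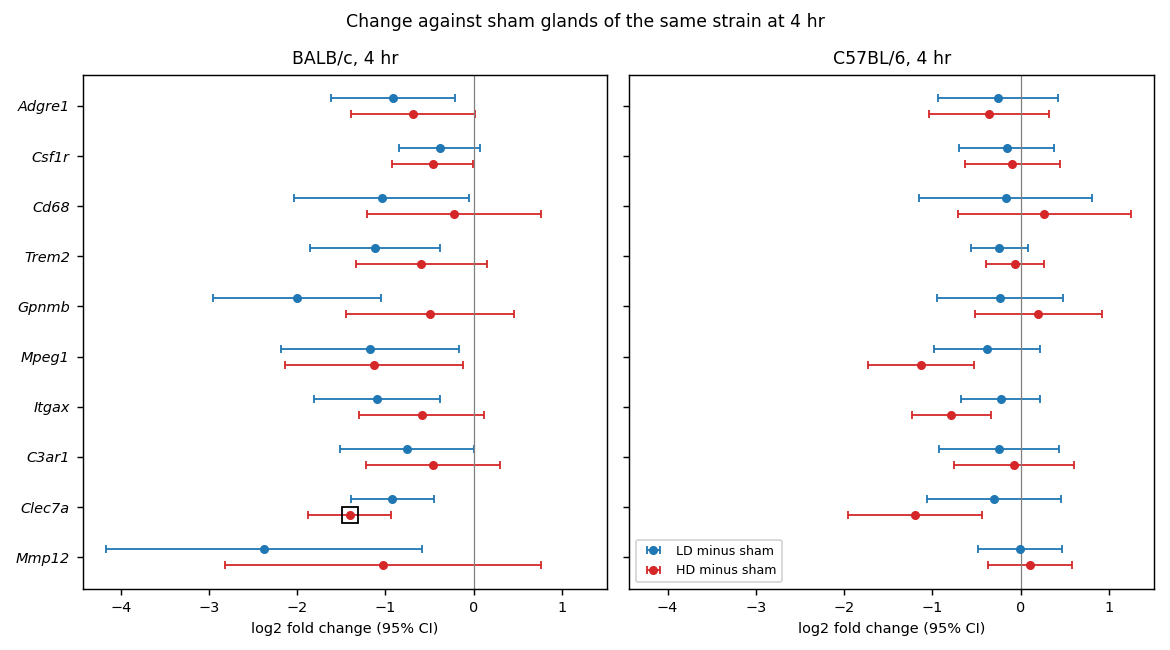
Log2 fold change against sham at 4 hr (x axis) with its 95% interval for each gene (y axis), LD in blue and HD in red, BALB/c left and C57BL/6 right. A square marks an adjusted p under 0.05, which Clec7a after HD in BALB/c reached (−1.41). All LD values of BALB/c lie below 0, from −2.38 to −0.39, and those of C57BL/6 between −0.38 and −0.0028.

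After LD at 4 hr in C57BL/6 all 10 members were also below 0, but by less, from −0.38 for Mpeg1 to −0.0028 for Mmp12, with a median of −0.24. None had an unadjusted p under 0.05, where 2.08% of all genes were lower at that level. The LD arrays were wide apart for the macrophage lineage genes, with 8.52, 6.88, 7.18 and 7.92 for Adgre1 and 9.31, 7.59, 7.69 and 8.74 for Cd68. Replicates 1 and 4 were the higher ones for both genes, and the lowest and highest LD arrays lay outside the sham range on either side. The LD response differed between the strains with an unadjusted limma p under 0.05 for 4 members, against 2.28% of all genes, and for none after adjustment (adjusted p = 0.9998). These were Gpnmb (−1.77, SE 0.59), Mmp12 (−2.37, SE 0.89), Trem2 (−0.88, SE 0.39) and Itgax (−0.87, SE 0.41), all more negative in BALB/c. All 10 members had the more negative value there, with a median of −0.83. Without BALB/c sham 4 hr replicate 2 the median was −0.43 and 1 member had such a p, and without C57BL/6 sham 4 hr replicate 2 2 members did. With plate column as a covariate 7 of the 10 were below 0.

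HD at 4 hr lowered Clec7a in BALB/c. The dectin-1 gene had 6.58, 6.51, 6.59 and 6.82 in the HD arrays, all below both the sham and the LD arrays, and its log2 fold change against sham was −1.41 (SE 0.23, 2.65-fold, adjusted p = 0.0027 by limma). It was the one member called, where 3.11% of all genes were called lower. Its value was −1.37 with plate column as a covariate, without a call (adjusted p = 0.1644). Mpeg1 had 7.54, 8.39, 6.99 and 8.51, just below the sham arrays, and a log2 fold change of −1.13 (SE 0.48, adjusted p = 0.1794). These 2 were the members whose groups did not overlap, against 10% of all genes. With Csf1r (−0.47, SE 0.22), 3 members were lower at an unadjusted p under 0.05, against 11.8% of all genes, and the median of the 10 was −0.59. Leaving out 1 array gave 1 (without HD replicate 3 or sham replicate 2) to 6 such members (without HD replicate 2 or sham replicate 1), with medians from −0.89 to −0.29.

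The other members were spread widely after HD in BALB/c. Gpnmb had 6.97, 8.93, 6.37 and 7.95, Trem2 5.94, 6.86, 4.98 and 6.51, and Mmp12 6.44, 8.67, 5.67 and 8.86. Replicates 2 and 4 were the higher ones for all 3, and they reached into the sham range or, for Gpnmb, above it. Cd68 followed the same order with 9.31, 9.72, 7.74 and 9.81. The log2 fold changes against sham ran from −1.03 for Mmp12 (SE 0.85, 95% interval −2.82 to 0.76) to −0.22 for Cd68 (SE 0.47), and that of Cd68 changed sign when 1 array was left out. Compared directly, HD glands had more Gpnmb than LD glands (log2 fold change 1.51, SE 0.42, adjusted p = 0.0360), where 2.71% of all genes were called higher. The arrays of these groups overlapped, and the call was lost without HD replicate 2 or 4, LD replicate 1, 2 or 4, or the arrays with transcripts of another tissue (adjusted p = 0.0634 to 0.1106). In the HD arrays the luminal epithelial list ran from 7.58 to 9.15, with 7 of 8 genes called lower than in sham. Also below sham were the means of NK and cytotoxic (4.64 to 4.75, sham 4.87 to 5.33) and fibroblast genes (12.09 to 12.58, sham 12.81 to 13.09). So was that of proliferation genes (5.03 to 5.34, sham 5.50 to 6.47). The adipocyte mean was higher (10.95 to 11.09, sham 10.72 to 10.86), and the neutrophil, T cell and dendritic cell means overlapped. The part of these lists in the values was not tested.

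In C57BL/6 glands at 4 hr after HD, the same 2 genes and Itgax were the lower ones. Mpeg1 had 7.72, 7.96, 7.29 and 7.75, Clec7a 6.83, 6.07, 6.49 and 6.07, and Itgax 5.78, 5.45, 5.14 and 5.35. All HD arrays of these 3 genes were below all C57BL/6 sham and LD arrays of that time. The log2 fold changes against sham were −1.13 for Mpeg1 (SE 0.29, adjusted p = 0.0707), −1.20 for Clec7a (SE 0.36, adjusted p = 0.1436) and −0.78 for Itgax (SE 0.22, adjusted p = 0.0960), so none was called, where 0.44% of all genes were lower. Without C57BL/6 sham 4 hr replicate 2 Mpeg1 passed (−1.41, adjusted p = 0.0352), and the part of the brown adipocyte transcripts in that array was not tested. At an unadjusted p under 0.05 these 3 were lower, against 8.46% of all genes, and they were the members with groups apart, against 7.61%. They also passed the study's thresholds for HD (the same size with an unadjusted p under 0.01), as 1.57% of all genes did. In the same arrays the mean of 8 T cell genes ran from 4.60 to 4.80 after HD and from 4.81 to 5.12 in sham, and that of 8 luminal genes from 9.22 to 9.99 and from 10.13 to 10.38. The mean of 7 neutrophil genes was higher after HD, with 4.81 to 5.305 against 4.56 to 4.78 in sham, and that of 7 NK and cytotoxic genes lower, with 4.67 to 4.78 against 4.81 to 5.07. The mean of 7 dendritic cell genes overlapped, with 5.63 to 5.83 after HD and 5.72 to 5.84 in sham. That of 6 myoepithelial genes was lower, with 7.62 to 8.11 after HD and 8.20 to 8.80 in sham. The part of these cells in the result was not tested.

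The remaining 7 members lay between −0.36 for Adgre1 and 0.27 for Cd68 after HD in C57BL/6. Adgre1 had 6.92, 7.94, 7.46 and 7.74, and Trem2 4.71, 4.84, 4.87 and 5.21, within the sham ranges but for the lowest arrays. Against LD glands the same 3 genes were lower (Mpeg1 −0.75, Itgax −0.56, Clec7a −0.90), with unadjusted p under 0.05, against 11.4% of all genes, and groups apart, against 5.12%. At 1 month after HD they lay higher than at 4 hr, by 0.93 for Mpeg1 (SE 0.27, adjusted p = 0.0840), 1.12 for Clec7a (SE 0.34, adjusted p = 0.0978) and 0.58 for Itgax (SE 0.20, adjusted p = 0.1381), the 3 members at an unadjusted p under 0.05, against 9.58% of all genes. The groups of Mpeg1 and Clec7a were apart, against 6.09%. These comparisons share the HD 4 hr arrays. Against LD, leaving out 1 array gave 1 (LD replicate 2) to 4 such members (LD replicate 1). C57BL/6 HD 1 month replicate 3 held more lymphocyte transcripts than its group, with a T cell mean of 6.49 (others 4.63 to 5.04) and a B cell mean of 5.95 (others 4.38 to 4.51), and had the highest Mpeg1 (9.25), Clec7a (8.11) and Itgax (6.28) of the group. Without it the differences with time were 0.72 for Mpeg1 (adjusted p = 0.2271), 0.91 for Clec7a (adjusted p = 0.2461) and 0.49 for Itgax (adjusted p = 0.3016), again with an unadjusted p under 0.05. For the strain difference of the HD response at 4 hr no member reached an unadjusted p under 0.05 (lowest adjusted p = 0.8743 by limma). The difference was −0.0046 for Mpeg1 (95% interval −1.17 to 1.16) and −0.21 for Clec7a (−1.14 to 0.71).

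**Figure D4:**
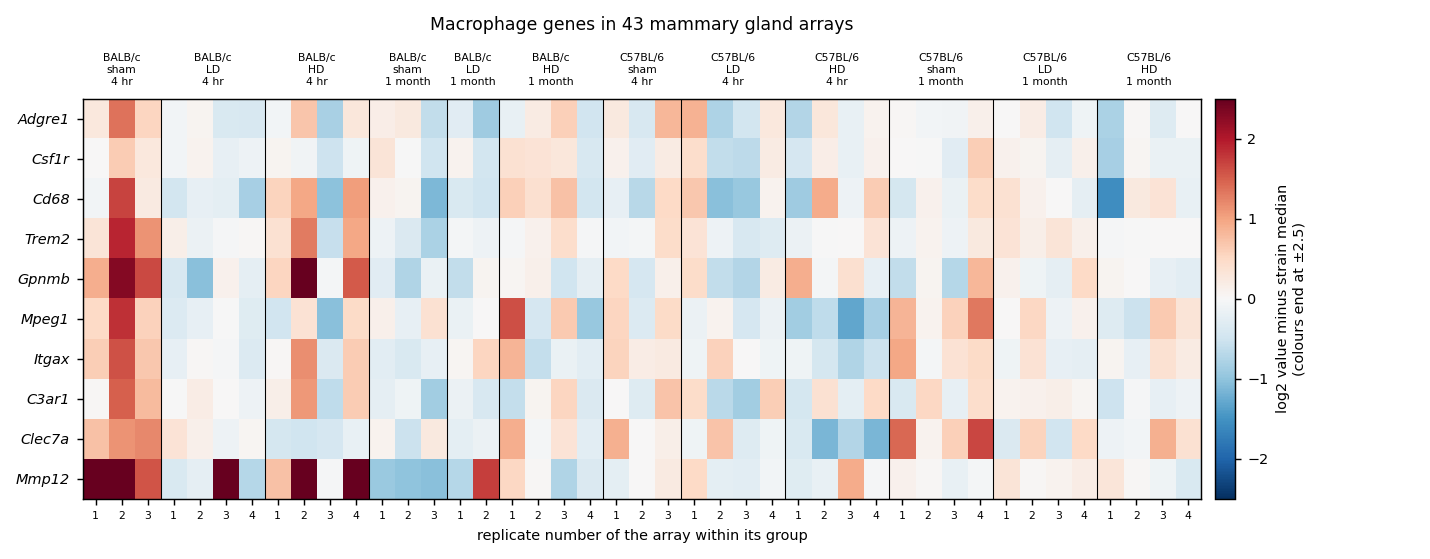
Log2 value minus the strain median of each gene (rows, 10 genes) in each of the 43 MG arrays (columns, with replicate numbers below and groups above), red above and blue below the median and colours ending at 2.5. The BALB/c sham 4 hr columns and BALB/c HD 4 hr replicates 2 and 4 are red in most rows, and C57BL/6 HD 4 hr is blue for Mpeg1, Itgax and Clec7a.

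At 1 month no member was called after either dose in either strain. In BALB/c the 2 LD arrays had 5.002 and 7.44 for Mmp12, 5.81 and 6.50 for Gpnmb and 5.51 and 5.43 for Trem2, and the 10 log2 fold changes ran from −0.52 for Adgre1 to 1.51 for Mmp12 (SE 1.02). With 2 arrays their precision is low. The groups of Itgax and Mmp12 did not overlap with sham, both higher after LD, as were 15.7% of all genes. After HD all 10 BALB/c values were above 0, from 0.10 for Adgre1 to 0.86 for Mmp12 (SE 0.85), with a median of 0.28, where 0.0169% of all genes were called. The arrays of Trem2 and Mmp12 were all above those of sham, as for 4.46% of all genes. BALB/c HD 1 month replicate 1, the array with B and T cell transcripts, was the highest of its group for Mpeg1 (9.63, others 7.08 to 8.69), Clec7a (7.92, others 6.74 to 7.35) and Itgax (6.66, others 5.22 to 5.65).

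In C57BL/6 at 1 month Clec7a, Mpeg1 and Itgax were below sham after LD and Mpeg1 after HD, at an unadjusted p under 0.05. After LD, Clec7a had 6.86, 7.76, 6.74 and 7.71, with a log2 fold change of −0.89 (SE 0.34, adjusted p = 0.2836), Mpeg1 was at −0.57 (SE 0.27) and Itgax at −0.48 (SE 0.20), 3 members at an unadjusted p under 0.05 against 7.8% of all genes. Their groups overlapped with sham, and C3ar1 was at 0.0019. No member had such a p without LD replicate 3 or without sham replicate 1. After HD, Mpeg1 had 8.25, 8.04, 9.25 and 8.90 and a log2 fold change of −0.68 (SE 0.27, adjusted p = 0.1858), the one member at an unadjusted p under 0.05, against 10.1% of all genes. Leaving out 1 array gave 0 (HD replicate 1 or 2 or sham replicate 4) to 3 such members (sham replicate 2). Called at an adjusted p under 0.05 were 0.982% of all genes and no member. Both comparisons share the 4 sham arrays at 1 month, in which Mpeg1 and Clec7a had their highest group means.

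The members varied together within groups, though unevenly. Over the 43 arrays, after subtraction of each group's mean, Pearson's r was above 0 for 40 of the 45 pairs of members, with a median of 0.393. It was highest for Adgre1 with Cd68 (0.870) and lowest for C3ar1 with Clec7a (−0.172). These values describe arrays that share tissue and preparation. Clec7a varied with Mpeg1 (0.632) and Itgax (0.560), and was little tied to the other members (−0.172 to 0.220).

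Beyond the 10 members, 97 genes of 8 macrophage and matrix lists were measured. In BALB/c at 4 hr after LD, 81 of them lay below 0 and 16 above, with a median of −0.31, none was called, and 12 were lower and 1 higher at an unadjusted p under 0.05. Over all genes the median was −0.0084, and 4.35% were lower at that level. Of those 12, 6 were among the 16 genes of the TREM2 adaptor and lipid-lysosome list. All 5 NADPH oxidase and lysozyme genes lay below 0, among them Cybb at −0.66 (SE 0.32) and Cyba at −0.53 (SE 0.32), the membrane subunits of the phagocyte oxidase, and all 8 pan-leukocyte genes did. In BALB/c sham glands from 4 hr to 1 month 81 of the 97 lay below 0 as well, with a median of −0.27, and these 2 comparisons share the sham arrays at 4 hr. In C57BL/6 after LD 75 lay below 0, with a median of −0.12, and none was called.

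After HD some of these genes were called. Ccr2, the chemokine receptor of inflammatory monocytes, fell in both strains at 4 hr, with log2 fold changes of −1.76 in BALB/c (SE 0.36, adjusted p = 0.0117) and −1.85 in C57BL/6 (SE 0.32, adjusted p = 0.0057). In C57BL/6 it was still lower than in sham at 1 month (−1.33, SE 0.30, adjusted p = 0.0423), a call lost in 6 of 8 fits without 1 array. In BALB/c at 4 hr, Cd14, a co-receptor for lipopolysaccharide (−0.87, SE 0.18, adjusted p = 0.0137), Cx3cr1, the fractalkine receptor (−0.60, SE 0.15, adjusted p = 0.0303), Mmp14, a membrane-bound metalloproteinase (−1.35, SE 0.30, adjusted p = 0.0178), and the tetraspanin gene Cd9 (−0.65, SE 0.15, adjusted p = 0.0232) also fell, and the myeloid and adipocyte factor gene Cebpa rose (0.36, SE 0.093, adjusted p = 0.0354). Cd9, Mmp14 and Cebpa are also expressed outside macrophages, and the cell source of none of these genes was measured. In the same BALB/c arrays the mean of 7 NK and cytotoxic genes was lower after HD (4.64 to 4.75) than in sham (4.87 to 5.33). The luminal epithelial mean was lower too, and the part of these cells was not tested. In all, 5 of the 97 were called lower in BALB/c, against 3.11% of all genes, and 1 higher, against 2.79%. In C57BL/6 1 of the 97 was lower, against 0.44%. Against LD glands of BALB/c, the lipid-handling genes Fabp5 (0.67, SE 0.16, adjusted p = 0.0191) and Plin2 (0.58, SE 0.15, adjusted p = 0.0282) were higher after HD, as Gpnmb was, and Cd9 (−1.05), Cd14 (−0.85) and Ccr2 (−1.12) were lower, with adjusted p from 3.09e-04 to 0.0470. In an alternative chosen after seeing the data, each array of the compared groups was left out in turn, and of 29 calls of list genes over all comparisons 7 held each time, 22 were lost at least once and 0 changed sign. Ccr2 after HD at 4 hr was lost in BALB/c without sham replicate 2 (−1.24, adjusted p = 0.0535) and in C57BL/6 without sham replicate 3 (−1.53, adjusted p = 0.0538). Held were Cd14, Cd9 and Ctsl for HD against LD in BALB/c and Ccr2 for it in C57BL/6, Tlr4 between the strains at 4 hr and over both times, and Cd52 over both times.

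From 4 hr to 1 month after HD, Mertk, a receptor for dead cells, fell in BALB/c (−0.80, SE 0.20, adjusted p = 0.0439), and the chemokine gene Cxcl16 (0.81, SE 0.18, adjusted p = 0.0368) and the leukocyte actin regulator Coro1a (1.70, SE 0.40, adjusted p = 0.0411) rose in C57BL/6. The call of Mertk was lost in 7 of 8 fits without 1 array. Neither of the C57BL/6 genes was called without HD 1 month replicate 3, the array with lymphocyte transcripts, where Cxcl16 was at 0.65 (adjusted p = 0.1200) and Coro1a at 1.16 (adjusted p = 0.0903). Leaving out other arrays cost these calls too: of 8 fits without 1 array, Cxcl16 lost its call in 4 and Coro1a in 6. Between the sham glands of the strains, averaged over both times, Tlr4, the lipopolysaccharide receptor (0.82, SE 0.12, adjusted p = 8.19e-04), and Timp3, a metalloproteinase inhibitor (0.52, SE 0.13, adjusted p = 0.0222), were higher in BALB/c, and the leukocyte antigen gene Cd52 was lower (−1.15, SE 0.27, adjusted p = 0.0178).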

How the data were processed

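RNA from the glands had been hybridised to HT_MG-430A arrays, and the authors deposited log2 values of 22626 probe sets after robust multi-array averaging (RMA; version not given in the sources used here). No further normalization or filter was applied, and probe sets were named from the platform annotation. Each gene is represented by its probe set with the highest mean over the 43 MG arrays. The members, the pathway and cell type lists and the tests were chosen with earlier results of these data known. Genes were named where they are members, where they are among up to 3 list genes per comparison with the largest change past the adjusted threshold (otherwise the 2 with the smallest p after LD in BALB/c), where they were among the 10 most like the members, or where an array stood apart.

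Groups were compared with limma 3.58.1 (lmFit and eBayes, R 4.3.3), with Benjamini-Hochberg adjustment over all probe sets and a threshold of 0.05. A fit per strain gave dose and time contrasts, a fit over the 43 arrays the strain differences of responses, and a fit over the 13 sham arrays the strain differences of levels. The strain difference of the sham change with time and the leaving out of arrays for list genes were added after seeing the data. The scripts were tested on simulated data. Each array is 1 mouse, and the 2 to 4 arrays of a group limit the precision. Alternatives covered the arrays in the fit, array weights, scaling, plate position, a filter on dim probe sets, the probe sets of a gene, the variance model, the study's thresholds, the replicate block and each array left out. Motifs were counted with Python 3.11.15 and pandas 2.3.3 in RefSeq windows of 250 bases before to 50 after a start. Csf1r is given without position or sequence.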

Additional observations from a re-analysis of the deposited data

Results flagged for a closer look

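In groups of 4 arrays, an array was marked where its gap to the nearest of the others, as a share of the group's range, exceeded Dixon's critical value. Of 96 tests (12 probe sets in 8 groups), 4 arrays were marked, and chance gives about 4.8. For Mmp12, BALB/c LD 4 hr replicate 3 had 8.45, while the others of its group had 4.99 to 5.48, so that 1 of the 4 LD arrays had a level within the sham range. Without it the median log2 fold change of the 10 members after LD was −1.11. For Itgax, C57BL/6 LD 4 hr replicate 2 had 6.48, above the 5.78 to 5.89 of the others. For Csf1r, BALB/c HD 1 month replicate 4 had 8.06, below the 8.73 to 8.84 of the others, and C57BL/6 LD 1 month replicate 3 had 8.15, below 8.44 to 8.49.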

How the results depend on the processing

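Over all comparisons and alternatives, 618 counts of members called stayed within 1.5 times the main count and 30 moved. Of the single changes followed, 704 kept direction and side of the threshold, 20 lost the call, 1 gained it and 2 changed sign. These do not cover every change of a member, and further members without a call in the main fit gained one in some alternatives, as given below. The causes were not tested. After LD at 4 hr in BALB/c, 9 members in place of 0 passed the study's thresholds, and after HD at 4 hr in C57BL/6 3, where leaving out 1 array gave 0 to 1 (Mpeg1, without sham 4 hr replicate 2). After LD at 1 month in C57BL/6 1 passed them. Clec7a after HD at 4 hr in BALB/c was not called with plate column as a covariate (0 in place of 1). Gpnmb, HD against LD in BALB/c, was lost with trend and robust variance (0 members), plate row (0) and without the arrays of another tissue (0), and leaving out 1 array gave 0 to 1. Fitting the 2 groups alone called Clec7a there (adjusted p = 0.0293) in place of Gpnmb (adjusted p = 0.0813). From 4 hr to 1 month after HD, 1 fit over the 43 arrays called 1 member in place of 0 in BALB/c (Gpnmb) and 1 in C57BL/6 (Clec7a), and in BALB/c leaving out 1 array gave 0 to 1 (without HD 1 month replicate 4). The HD response of BALB/c differed between the times for Clec7a (1 in place of 0) with trend and robust variance, with probe sets above the median and with the mean of probe sets, and leaving out 1 array gave 0 to 1 (without HD 1 month replicate 1 or 4).

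Between the strains, 3 members were called at 4 hr and 1 with probe sets above the median, a filter that drops Trem2, Itgax and Mmp12. At 1 month, 1 in place of 0 was called with 1 fit and without the arrays of another tissue, 3 with array weights, and 0 to 1 without 1 array (without C57BL/6 sham 1 month replicate 2). Over both times 1 in place of 2 was called with probe sets above the median, which left Gpnmb (adjusted p = 0.0451). Gpnmb also gained a call over both times with 1 fit (adjusted p = 0.0381), with array medians centred (0.0497) and without the arrays of another tissue (0.0395). It did so too without C57BL/6 sham 1 month replicate 4 (0.0165) or BALB/c sham 4 hr replicate 1 (0.0280). Cd68 after HD at 4 hr in BALB/c was 0.25 without HD replicate 3 and 0.31 without sham replicate 2, and its values without 1 array ran from −0.56 to 0.31. Arrays of the same replicate number did not deviate together (mean residual r 0.0145 in BALB/c and 0.0124 in C57BL/6), so they are not pairs. With the replicate number as a block, the strain comparison of sham glands called 1 member at 4 hr, 1 at 1 month and 0 over both times. At 4 hr Trem2 was then at 1.58 (adjusted p = 0.2043) and Gpnmb at 1.45 (adjusted p = 0.3526), and over both times Mmp12 was at 1.93 (adjusted p = 0.0959).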

Other observations

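The 8 blood arrays of the series came from cardiac blood of unirradiated mice aged 9 weeks. Both strains shared a plate there, which was not one of the MG plates. These arrays were not part of the comparisons, and levels are not set against those of the MG. Mmp12 had 2.89 to 3.00 in BALB/c blood and 2.72 to 2.96 in C57BL/6 blood, Gpnmb 3.42 to 3.77 and 3.39 to 3.78, and Trem2 4.08 to 4.55 and 3.60 to 4.23. Mpeg1 had 9.48 to 10.13 and 8.32 to 10.22, Clec7a 9.60 to 9.74 and 7.06 to 9.70, and Adgre1 8.91 to 9.93 and 6.63 to 8.85. C57BL/6 blood replicate 4 was the lowest of its group for these last 3 genes.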
